A study of Mus musculus with 3 samples.

Results

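The 9 erythroid genes *Klf1*, *Epor*, *Tfrc*, *Alas2*, *Car1*, *Hba-a1*, *Hba-a2*, *Hbb-bs* and *Hbb-bt*, of 21728 protein-coding genes, were followed through the open chromatin of 3629 long-term hematopoietic stem cells (LT-HSCs). They were chosen by name, as a regulator, receptors, enzymes and products of red cell development. The rule for choosing them uses no measured value, but earlier results of these data were known when it was set. The mice were wild-type C57BL/6J females aged 24 months, and their bone marrow was sorted for cells lacking lineage markers, CD48 and CD34 and carrying Sca-1, c-Kit and CD150. They were profiled by DOGMA-seq, a method that captures open chromatin (ATAC) together with RNA and surface antibody tags in each cell, and the study asked which surface antigens separate platelet-biased (PLT) from multilineage (MUL) stem cells. All cells came from 1 preparation with 1 library per assay, no allele or treatment was compared, and the RNA matrix was not analysed here. With 1 library there is no spread between replicates, so no test was run, and the intervals below are exact 95% intervals that cover counting error only.

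Red cells form from stem cells through a series of progenitors and end filled with hemoglobin. On the way, the transcription factors Gata1 and Klf1 switch on erythroid genes, erythropoietin acts through its receptor Epor, and the transferrin receptor Tfrc brings in iron for heme, whose synthesis in these cells starts with the enzyme Alas2. The alpha and beta globin genes lie in clusters ordered by developmental use, with distant enhancers upstream. Those of the alpha cluster lie within introns of the neighboring gene *Nprl3* and beside it. Those of the beta cluster form the locus control region upstream of the embryonic gene *Hbb-y*.

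The ATAC library held 43705382 fragments, and the 3629 cells kept for counting carried between 3853 and 45069 nuclear fragments each, with a median of 10287. A fragment is a piece of DNA cut out at both ends by the transposase, which enters open chromatin most easily, so its density measures accessibility. Levels are given as fragments per kb relative to the genome mean of 15.0 fragments per kb in these cells. An open site was a stretch where insertions (fragment ends) in windows of 500 bp reached at least 4 times the genome mean, and such sites occurred 2.90 times per 100 kb across the genome. A promoter was taken as 1 kb on each side of the transcription start, and a gene window as the gene body with 2 kb upstream. A promoter counted as open where an open site overlapped any part of it, whatever its mean level.

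The members fell into 2 sets at their promoters. An open site covered those of *Tfrc*, *Epor* and *Klf1*, at 52.0, 17.5 and 10.3 times the genome mean, whereas *Hbb-bt*, *Alas2*, *Hbb-bs*, *Hba-a2*, *Hba-a1* and *Car1* lay between 1.43 and 0.133 times the mean. These were 3 of the 9 members, against 68.3% of all protein-coding genes, whose median promoter stood at 13.6 times the genome mean. *Tfrc* and *Epor* were above that median, at the 84.2 and 54.8 percentile of all genes, and *Klf1* was below it, at the 45.5 percentile. The closed members were still above promoters of olfactory receptor genes, which blood cells do not use and whose median was 0.0332 times the mean over 1134 genes.

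**Figure D1:**
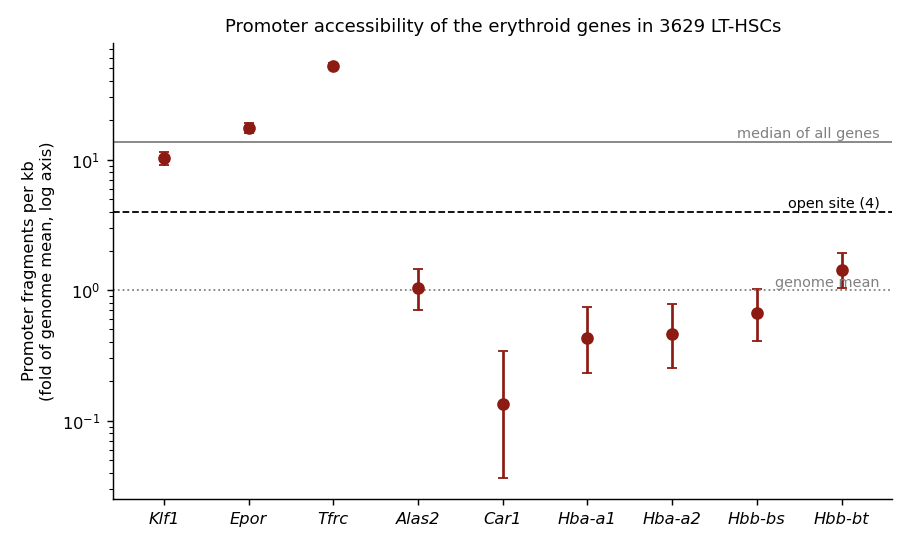
Promoter fragments per kb of each gene as fold of the genome mean (log axis), with exact 95% Poisson intervals; the dashed line marks 4 times the mean, and the grey lines mark the median of all protein-coding genes and the genome mean. *Tfrc*, *Epor* and *Klf1* lie above the dashed line, and the other 6 genes lie at or below 1.43 times the mean. The dashed line is a guide only, since open sites were found on insertions in windows of 500 bp and not on these promoter averages.

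*Tfrc*, which encodes the receptor that carries transferrin-bound iron into cells, was the most accessible promoter among the members. Its promoter (mm10, start at chromosome 16, position 32608920, plus strand) held 1565 fragments, or 40.7 CPM (38.7 to 42.7), where CPM stands for fragment counts scaled by all nuclear fragments of the same cells. A fragment was seen there in 1175 cells, 32.4% of all (30.9 to 33.9). Iron uptake is needed by every dividing cell, so this gene is not restricted to the red lineage. Of its promoter fragments, 45.8% (43.3 to 48.3) were shorter than 120 bp, the length left by DNA free of nucleosomes, against 28.8% of all fragments. The summit lay at -0.07 kb from the start, and the nearest level among the 91 erythroid pathway genes was that of *Socs2*, with 1573 promoter fragments. The sequence upstream of the start is shown because it carries the strongest promoter signal of the members. It is GC-rich (64.8%) and has 1 CCAAT match and 1 match to CCNCACCC, the letters bound by Klf-type factors, both in capitals (RefSeq start, GRCm38.p6, plus strand, chr16:32608646-32608895).

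Tfrc promoter: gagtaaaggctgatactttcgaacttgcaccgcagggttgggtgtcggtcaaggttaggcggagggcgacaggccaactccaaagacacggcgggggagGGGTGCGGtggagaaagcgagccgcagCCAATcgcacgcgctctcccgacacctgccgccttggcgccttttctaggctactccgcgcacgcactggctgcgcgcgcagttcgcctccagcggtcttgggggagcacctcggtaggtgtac

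*Epor*, the receptor for erythropoietin, had 527 promoter fragments, or 13.7 CPM (12.5 to 14.9), in 461 cells (12.7%, 11.6 to 13.8). Its start lies at chromosome 9, position 21963506, on the minus strand. The open site over it was 2900 bp wide, with its summit 0.856 kb inside the gene, and 33.8% (29.7 to 38.0) of the promoter fragments were short. The nearest erythroid pathway gene in level was *Lyn*, a kinase acting below the receptor, with 522 fragments. The 250 bases upstream of the RefSeq start are shown since they hold 4 of the 7 letter strings searched, and not as the peak of the signal. In bins of 100 bp at -0.15 and -0.25 kb, insertions stood at 8.64 and 3.32 times the genome mean, against 88.1 times at 0.85 kb inside the gene. In capitals are TTATCT, the reverse of the Gata match AGATAA, 1 match to CCNCACCC, ACCACA, the reverse of the Runx match TGTGGT, and GCCCCCT, the reverse of AGGGGGC, a core of the CTCF motif (minus strand, chr9:21963577-21963826). Of all 32851 RefSeq promoter windows of this length, 9.99% held AGATAA, 14.9% CCNCACCC, 14.0% TGTGGT and 9.43% AGGGGGC, on either strand. Of these 4 strings, 300 bases within the open site, at 47.5 times the genome mean, held only AGGGGGC.

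Epor promoter: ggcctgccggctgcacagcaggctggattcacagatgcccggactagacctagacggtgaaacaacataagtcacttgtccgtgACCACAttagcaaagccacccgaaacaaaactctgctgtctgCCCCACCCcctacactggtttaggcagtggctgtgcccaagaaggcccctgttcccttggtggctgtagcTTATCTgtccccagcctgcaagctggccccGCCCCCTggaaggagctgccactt

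*Klf1*, the transcription factor that activates the adult globin genes, was open inside the gene more than at its start. In the bins of 100 bp from -0.15 to 0.15 kb, the insertions of *Klf1* stood at 2.66, 2.99, 2.66 and 4.65 times the genome mean, and they rose to 23.9 times at 0.75 kb, so the promoter counts as open through the edge of the site inside the gene. The promoter held 309 fragments, or 8.03 CPM (7.16 to 8.97), in 274 cells (7.55%, 6.71 to 8.46), and only 12.6% (9.13 to 16.8) of them were short. The gene window held 1759 fragments, 45.7 CPM (43.6 to 47.9), at 21.8 times the genome mean per kb and the 97.2 percentile of all gene windows. The signal came from an open site 2400 bp wide with its summit in a coding exon, 1.32 kb downstream of the start (chromosome 8, position 84901928, plus strand). This site held 1685 fragments in 1252 cells (34.5%), reached 161 times the genome mean, and 33.1% of its fragments were short. The 300 bases with most insertions are shown as the peak of the *Klf1* signal, with 1357 insertions against 2422 in the highest window of 500 bp. They are 70% GC and hold 3 matches to AGGGGGC on either strand, in capitals (plus strand, chr8:84903101-84903400). That string was found in 11.2% of all 74248 open sites (300 bases each, either strand). One match runs into CTTCCT, the reverse of the Ets match AGGAAG, which 46.8% of open sites held.

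Klf1 site: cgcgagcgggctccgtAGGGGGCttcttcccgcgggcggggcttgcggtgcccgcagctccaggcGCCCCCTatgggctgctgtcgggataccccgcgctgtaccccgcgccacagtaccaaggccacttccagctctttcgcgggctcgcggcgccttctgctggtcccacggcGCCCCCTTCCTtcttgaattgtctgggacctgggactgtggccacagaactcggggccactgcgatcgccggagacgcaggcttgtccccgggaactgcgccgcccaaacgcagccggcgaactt

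*Alas2* and *Car1* were closed. *Alas2*, on chromosome X with its start at position 150547375, had 31 promoter fragments, 1.03 times the genome mean (0.700 to 1.46), in 27 cells. *Car1*, the carbonic anhydrase I of red cells, on chromosome 3 with its start at position 14808365, had 4 promoter fragments, 0.133 times the mean (0.0362 to 0.340). Over the whole gene windows they lay at 0.234 and 0.107 times the genome mean, with 89 and 71 fragments. No open site lay within 50 kb of *Car1*, the only one of the 7 loci with none, also when the threshold was lowered to 2 times the mean. Within 50 kb of *Alas2* there were 3, the nearest at -36.5 kb from its start. *Alas1*, which carries out the same step as *Alas2* in other cells, had 768 promoter fragments, 25.5 times the mean. *Car2*, the widely used carbonic anhydrase, had 1399, or 46.5 times the mean.

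**Figure D2:**
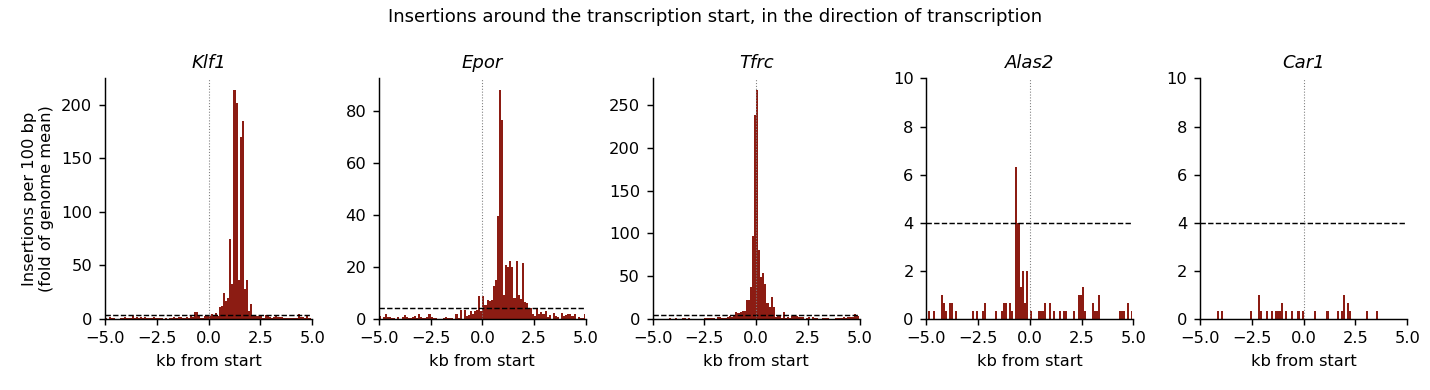
Insertions per 100 bp as fold of the genome mean (vertical axes, different scales) against the distance from the start in kb in the direction of transcription (horizontal axes), for *Klf1*, *Epor*, *Tfrc*, *Alas2* and *Car1*; the dashed line marks 4 times the mean. The signal peaked at the start of *Tfrc*, within the first kb of *Epor* and 1.32 kb inside *Klf1*.

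As counted, the adult globin genes were closed in the population as a whole. *Hba-a1* had 13 promoter fragments in 11 cells (0.432 times the genome mean, 0.230 to 0.739) and *Hba-a2* had 14 in 13 cells (0.465 times, 0.254 to 0.780). *Hbb-bs* had 20 in 20 cells (0.664 times, 0.406 to 1.03) and *Hbb-bt* had 43 in 42 cells (1.43 times, 1.03 to 1.92). *Hbb-bt* was thus the highest of the 4 as counted. Of their promoter fragments, 1, 0, 1 and 3 were short in the same order. The starts were at chromosome 11, positions 32283511 and 32296489 (plus strand) for *Hba-a1* and *Hba-a2*, and at chromosome 7, positions 103827928 and 103813996 (minus strand) for *Hbb-bs* and *Hbb-bt*. The embryonic genes *Hba-x*, *Hbb-bh1* and *Hbb-y* were as low, with 12, 9 and 5 promoter fragments. *Hbq1b* and *Hbq1a*, theta-like genes of the alpha cluster, stood apart with 213 and 190, at 7.08 and 6.31 times the mean, and both lay under open sites.

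The alpha genes are near-identical copies, so reads from one can fit both and may have been dropped. Between the *Hba-a1* and *Hba-a2* upstream sequences, 247 of 247 compared bases were the same. Only 30.9% and 25.4% of the 50-base words in their promoters occurred once in the genome, against 57.4% for *Hbb-bs*, 59.2% for *Hbb-bt* and 100% for the other 5 promoters. Dividing the levels by these shares gave 1.40 and 1.83 times the genome mean for *Hba-a1* and *Hba-a2*, and 1.16 and 2.41 times for *Hbb-bs* and *Hbb-bt*. After this division all 4 were under the median promoter of all genes, at 13.6 times, but their order is uncertain. The division takes fragments to be spread evenly over each promoter. It cannot restore a peak in bases that the copies share, so it does not settle whether these promoters are closed. The 4 times that marked an open site was set on windows of 500 bp, so these promoter averages cannot be set against it. Whether an open site would be found after such a division was not tested. The *Hba-a2* upstream sequence is shown as the copy that both genes share. Its 1 capital stretch is the CCAAT box, which 33.8% of promoter windows held (plus strand, chr11:32296242-32296491).

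Hba-a2 promoter: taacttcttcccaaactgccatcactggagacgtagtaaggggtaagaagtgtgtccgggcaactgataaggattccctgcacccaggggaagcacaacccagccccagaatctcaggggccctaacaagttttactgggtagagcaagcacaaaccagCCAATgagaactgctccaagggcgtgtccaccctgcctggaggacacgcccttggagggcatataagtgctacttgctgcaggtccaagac

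Globin fragments were scattered singly over cells. A fragment over 1 or more of the 4 globin gene windows was found in 151 cells (4.16%), in 9 of them there were 2, and no cell had 3. No member other than *Klf1*, *Epor* and *Tfrc* had more than 3 gene window fragments in 1 cell, where those 3 reached 5, 6 and 6. Counting promoters, 1937 cells had a fragment at none of the 9 members, 1381 at 1, 289 at 2, 20 at 3 and 2 at 4. The cells with more members covered were deeper, with a median of 9888 nuclear fragments for none and 11678 for 2, and the part of depth in these counts was not tested.

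Both globin control regions held open chromatin while the promoters of the adult genes did not. The alpha locus had 13 open sites within 50 kb of the 2 genes (11.4 per 100 kb) and the beta locus 6 (5.19 per 100 kb). None of the 19 covered a member promoter, and 9 of the alpha and 5 of the beta sites covered no promoter of any protein-coding gene. Of the other loci, *Klf1* had 11 sites, *Epor* 13, *Tfrc* 9 and *Alas2* 3, which made 55 in all. Around *Klf1* and *Epor* 6 sites each overlapped promoters of other genes, so these counts describe gene-dense neighborhoods.

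**Figure D3:**
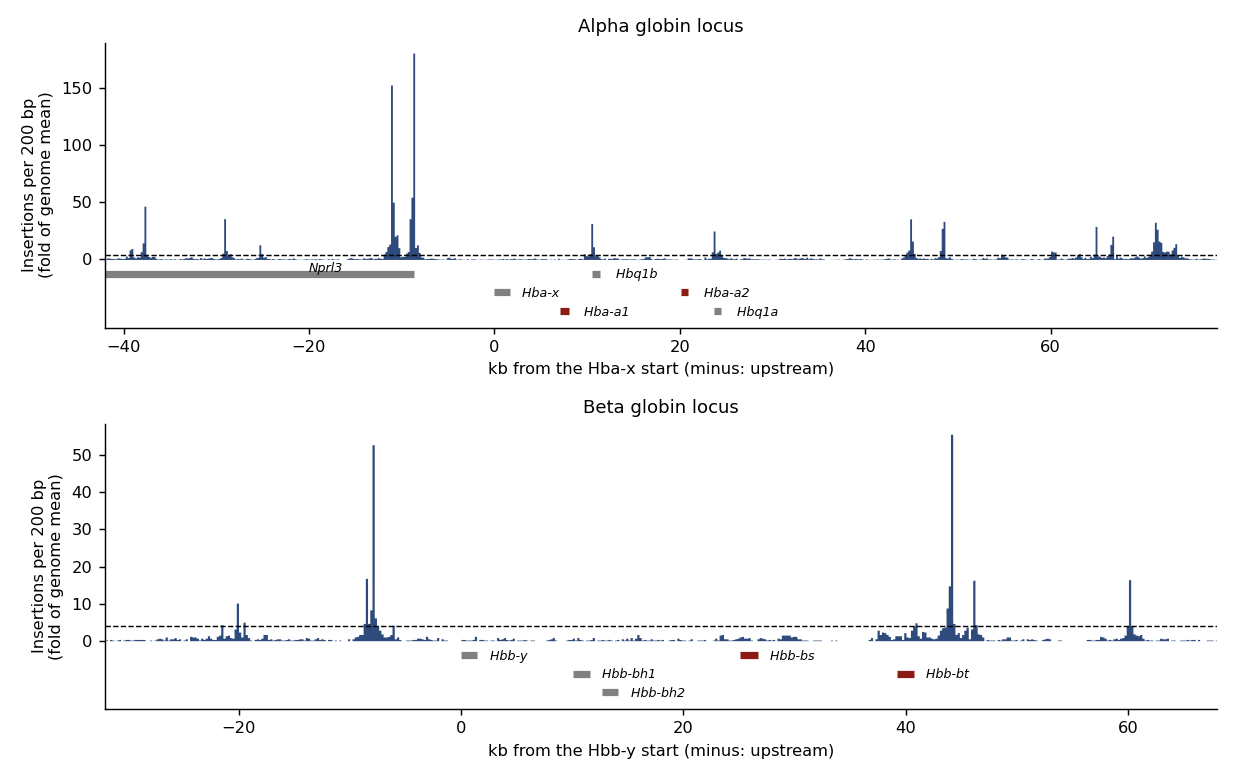
Insertions per 200 bp as fold of the genome mean (vertical axes) against the distance in kb from the start of *Hba-x* (upper) or *Hbb-y* (lower), with minus for upstream; bars under the axes mark genes, the adult globin genes in red, and the dashed line marks 4 times the mean. The alpha locus was highest in and beside *Nprl3*, upstream of *Hba-x*, and the adult genes of both loci lay in stretches near or under the mean.

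The alpha enhancers are known at about 31, 26, 21, 12 and 8 kb upstream of *Hba-x*, within and beside *Nprl3*, and windows of 1 kb on each side of these points differed widely. The window at 12 kb held 719 fragments, 23.9 times the genome mean, in 632 cells (17.4%). The one at 8 kb held 915, 30.4 times the mean, in 765 cells (21.1%), but it takes in the promoter of *Nprl3*, which is active in most cell types. At 26 kb there were 86 fragments, 2.86 times the mean, at 31 kb 36 (1.20 times) and at 21 kb 18 (0.598 times). The 5 windows together held 1774 fragments, 46.1 CPM (44.0 to 48.3), while the 2 adult alpha promoters together held 27, 0.701 CPM (0.462 to 1.02). A single site 4300 bp wide reached into the windows at 12 and 8 kb and was seen in 1366 cells (37.6%). The peak near 12 kb lay 11.15 kb upstream of *Hba-x* and reached 107 times the mean over 300 bases. With windows of 500 bp on each side the 5 together gave 8.55 CPM, so the sum depends on where the windows end. Open sites in *Nprl3* introns also lay outside these windows, at 37.75 kb (329 fragments, 25.6 times the mean) and 29.05 kb (195 fragments, 18.4 times). A smaller site 25.25 kb upstream, at the edge of the 26 kb window, reached 10.3 times the mean over 300 bases and was seen in 79 cells (2.18%). The 2 sequences are shown together because both hold the Gata match AGATAA and the NF-E2 or AP-1 match TGANTCA, while their levels were 107 and 10.3 times the mean. The first also holds the reverse of the Runx match. AGATAA was present in 12.1%, TGANTCA in 12.5% and TGTGGT in 26.98% of all open sites (plus strand, chr11:32265101-32265400 and chr11:32251001-32251300).

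Alpha site 11.15 kb upstream: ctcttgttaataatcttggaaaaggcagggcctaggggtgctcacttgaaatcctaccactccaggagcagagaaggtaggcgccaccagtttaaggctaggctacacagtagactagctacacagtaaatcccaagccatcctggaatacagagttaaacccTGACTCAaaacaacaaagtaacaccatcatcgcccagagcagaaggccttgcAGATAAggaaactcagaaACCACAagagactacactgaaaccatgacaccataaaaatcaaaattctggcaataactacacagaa

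Alpha site 25.25 kb upstream: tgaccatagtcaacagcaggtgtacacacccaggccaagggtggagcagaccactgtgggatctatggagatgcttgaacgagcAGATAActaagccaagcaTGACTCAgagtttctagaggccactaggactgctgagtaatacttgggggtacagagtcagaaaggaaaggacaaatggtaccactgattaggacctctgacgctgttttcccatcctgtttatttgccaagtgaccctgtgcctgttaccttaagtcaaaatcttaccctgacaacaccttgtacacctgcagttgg

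In the beta locus, the control region from 1 to 25 kb upstream of *Hbb-y* held 566 fragments over 24 kb, 14.7 CPM (13.5 to 15.96), which was 1.57 times the genome mean, in 489 cells. Its level per kb lay above those of the alpha windows at 31 and 21 kb and below the other 3, over a much longer stretch. Its highest site, with its summit 7.93 kb upstream of *Hbb-y*, was 1700 bp wide, held 317 fragments in 283 cells (7.80%) and reached 26.2 times the mean. A weaker site 20.1 kb upstream held 65 fragments. On the other side of the cluster, 4.85 kb downstream of the *Hbb-bt* start, a site with 294 fragments in 268 cells (7.38%) reached 30.1 times the mean. The sequence of the first site is shown for its pair of TGACTCA strings 3 bases apart, both fitting TGANTCA, followed by the reverse of CCNCACCC (13.8% of open sites). CTTCCT, in capitals near its 5′ end, is the reverse of AGGAAG. No AGATAA was found in these 300 bases (plus strand, chr7:103861001-103861300).

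Beta site 7.93 kb upstream: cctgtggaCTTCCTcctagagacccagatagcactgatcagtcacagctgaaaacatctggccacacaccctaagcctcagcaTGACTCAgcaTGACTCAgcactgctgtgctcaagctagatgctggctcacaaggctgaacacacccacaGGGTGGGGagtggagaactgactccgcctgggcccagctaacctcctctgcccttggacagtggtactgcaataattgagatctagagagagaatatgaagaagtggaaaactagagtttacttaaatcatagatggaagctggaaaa

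Of the 3629 cells, 105 had a fragment at both the large open alpha site, which takes in the promoter of *Nprl3*, and the open beta site. The product of the 2 shares was 107 cells, a figure that takes no account of the unequal depth of the cells. Among the 86 cells with a globin promoter fragment, 38 (44.2%) had one at the large alpha site, beside 37.6% of all cells.

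Across all protein-coding genes, 68.3% had an open promoter and the median level was 13.6 times the genome mean, and the gene lists of the red cell pathway are set beside these values. All 14 genes of erythropoietin signaling and all 15 of heme synthesis had an open promoter, from *Lyn* (522 fragments) to the kinase gene *Pim1* (3384) in the first list and from the porphyrin exporter gene *Abcg2* (227) to *Blvrb* (2145) in the second. Of the 13 genes of iron uptake and handling, 12 were open, with *Slc25a28* highest (3612) and *Steap3*, the ferrireductase gene of red cell precursors, lowest (5). Most of these genes also serve other cells. The erythroid transcription factors were open in 14 of 15, with a median of 32.3 times the genome mean. *Zfpm1*, the Gata1 partner, had the highest level (4524 fragments, 150 times), *Gata1* itself had 258 (8.57 times) and *Sox6* had 3.

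The remaining erythroid lists mix genes restricted to red cells with widely used ones. Of 17 red cell membrane genes, 12 were open (70.6%, near the 68.3% of all genes), with a median of 6.81 times the mean, below that of all genes, from *Rhd* (25 fragments) to *Icam4* (773). *Slc4a1*, the anion exchanger of the red cell, had 41 fragments. Of 11 late erythroid genes, 8 were open (72.7%, also near that of all genes), with a median of 43.5 times the mean, from *Trim10* (36) to *Bnip3l* (2351). *Pklr*, *Tspo2* and *Hemgn* were also low, with 39, 39 and 44 fragments, although *Hemgn* counted as open because an open site overlapped its promoter. Widely used genes such as *Car2* and the cell cycle inhibitor gene *Cdkn1b* (1520) made up the upper range. The 6 other globin genes had a median of 0.349 times the mean with 2 open, the 2 theta-like genes. For comparison, all 12 HSC genes were open, with a median of 32.0 times, from *Ly6a* (115) to *Mllt3* (1774), as were all 10 housekeeping genes (median 69.0 times). Of 11 globin neighbors, 8 were open, from *Olfr64* (3) to *Snrnp25* (1178). Nearest in promoter level to *Klf1* was *Nfix*, a transcription factor gene, with 321 fragments, and nearest to *Alas2* was the blood group gene *Ermap* with 30. For *Hbb-bt* it was *Hemgn* with 44 and for *Hbb-bs* the blood group gene *Rhd* with 25.

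Promoters that define other blood cells set the closed members in context. Open promoters numbered 9 of 11 megakaryocyte genes (median 17.1 times the mean, highest *Itgb3*, lowest *Gp6*), 7 of 12 myeloid genes (3.16 times, *Cebpa* and *Ctsg*) and 6 of 10 macrophage genes (2.24 times, *Mertk* and *Cd163*). For B cell genes the count was 5 of 10 (1.56 times, *Ebf1* and *Ms4a1*) and for T cell genes 3 of 10 (0.864 times, *Tcf7* and *Cd8a*). The members as counted, with a median of 1.03 times, thus ranked between the B cell and T cell lists. When divided by their share of unique words, *Hba-a1*, *Hba-a2* and *Hbb-bs* moved from under this median to 1.40, 1.83 and 1.16 times. The rank therefore depends on that division, which was not made for the other lists. These medians are descriptions of chosen lists and carry no test.

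Cells were then divided by antibody counts. CD61 is integrin beta 3 of platelets and megakaryocytes, CD274 is PD-L1, CD357 is GITR and CD27 is a receptor of the TNF receptor family. PLT-gated cells had CD61 and CD274 counts over the median, with CD357 and CD27 counts not over it, and MUL-gated cells were the reverse. These gates use medians of raw tag counts, whereas the study transformed its counts by centered log-ratio. The gated cells can therefore differ from those of the study. The medians were 3, 19, 3 and 1 tags, and a cell carried 29 tags in the median, so the split by CD27 in particular rests on a difference of single tags. A gene was called where the log2 ratio of its gene window level reached 0.5 in size with at least 20 fragments over both groups.

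Between 342 PLT-gated and 61 MUL-gated cells, the 9 members together had 105 and 113 CPM, a log2 ratio of -0.12 (-0.48 to 0.29). Only *Klf1*, *Epor* and *Tfrc* had enough fragments, and 0 of these 3 were called, against 10.1% of all genes higher and 9.13% lower. *Klf1* had 41.8 CPM in the PLT gate and 49.97 in the MUL gate (log2 ratio -0.28, -0.83 to 0.36), *Epor* 13.8 and 16.7 (-0.32, -1.27 to 0.88) and *Tfrc* 43.8 and 38.3 (0.17, -0.45 to 0.89). All 3 intervals include 0. PLT-gated cells carried more tags (median 37 against 26) and more often had an excess of overlapping fragments (8.19% against 3.28%). Of 9 megakaryocyte genes, 3 were called higher and 0 lower, with a median log2 ratio of 0.34. Of 14 genes of erythropoietin signaling, 3 were called higher and 0 lower (median 0.19). Of 15 erythroid transcription factors, *Gfi1b* alone was called, lower in the PLT gate (-0.79), and *Hbq1a*, the 1 other globin gene with enough fragments, was also lower (-1.13). The open site over *Hbq1a* held only 18 and 6 fragments (-1.05, -2.37 to 0.65), an interval that includes 0. Other lists had calls in both directions, such as red cell membrane genes (2 higher and 3 lower of 15). For heme synthesis these were 1 and 2 of 15, and for HSC genes 2 and 1 of 12. The part of these differences in the member values was not tested. *Hba-a1* and *Hba-a2* had no gene window fragment in either gate, which at 3 counts over 600356 nuclear fragments in the MUL gate leaves low levels undetectable.

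Among the 3 open members, *Epor* had the widest difference in any single antibody split, that for CD274. In 1728 CD274-high cells it had 317 gene window fragments (17.0 CPM) and in 1901 CD274-low cells 463 (23.3 CPM), a log2 ratio of -0.45 (-0.66 to -0.24). Its promoter alone gave 205 and 322 fragments, a log2 ratio of -0.56 (-0.82 to -0.30). Along the CD274 count the *Epor* level was 25.6 CPM (22.7 to 28.8) at 2 to 13 tags, 20.5 (17.7 to 23.7) at 14 to 19, 17.4 (14.8 to 20.4) at 20 to 27 and 16.7 (14.2 to 19.4) at 28 to 110. The level was lower at each step, and the interval of the lowest group did not overlap those of the 2 highest. *Gata1*, the upstream regulator that is no member, moved the same way, with 21.8 and 31.5 CPM in CD274-high and CD274-low cells (-0.53), and was the 1 erythroid transcription factor of 15 called lower, with 0 called higher. Of 14 genes of erythropoietin signaling, 0 were called. In divisions added after the data had been seen, the *Epor* ratio was -0.44 (-0.69 to -0.19) within Gata1-closed and -0.42 (-0.83 to -0.03) within Gata1-open cells. It was -0.32 (-0.61 to -0.04) in CD61-low and -0.52 (-0.84 to -0.21) in CD61-high cells.

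In cells at or below the median of summed tags the ratio was -0.23 (-0.74 to 0.21), and in cells above it -0.35 (-0.79 to 0.14). Both of these intervals include 0. CD274 had 77229 tags, against 13660 for CD61, 11810 for CD357 and 3304 for CD27, and so makes up most of the sum. Cells above the median of summed tags were thus mostly CD274-high (1523 against 214), and the rest mostly CD274-low (1687 against 205). This split cannot separate the CD274 count from the sum of tags. Among the cells with at least 50 tags, 160 CD274-high and 203 CD274-low by their own median, the direction was the opposite, at 0.25. CD274-high cells carried more tags in all (median 39 against 22), a sum that includes the CD274 tags themselves. They had nearly the same depth (median 10254 against 10294 nuclear fragments). They also held more cells with an excess of overlapping fragments, a sign of doublets (10.6% against 6.68%). Leaving out the latter cells gave -0.45 and thinning all cells to 6000 fragments gave -0.36. Of the tested HSC, megakaryocyte, myeloid, B cell, T cell and macrophage genes (12, 11, 11, 10, 9 and 10), 0 were called between CD274-high and CD274-low cells. Of 3 other globin genes 1 was called higher (*Hba-x*, 0.76) and of 10 globin neighbors 1 (*Olfr66*, 1.17), against the direction of *Epor*. The other open members showed smaller differences. *Klf1* had 47.3 and 44.2 CPM (log2 ratio 0.10, -0.04 to 0.24) and *Tfrc* 46.1 and 48.7 (-0.08, -0.21 to 0.06). The sum of the 9 members was 118 against 125 CPM (-0.08, -0.16 to 0.01), and 0 of 8 members with enough fragments were called, against 0.96% of all genes higher and 2.2% lower.

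For CD61, the platelet integrin, the members together stood at 120 CPM in 1695 high and 123 in 1934 low cells (log2 ratio -0.03, -0.11 to 0.06). *Epor* was again lower in high cells, at 18.1 against 22.2 CPM (-0.29, -0.50 to -0.08), with the interval leaving out 0. CD61-high cells carried more tags (median 33 against 25) and more often had an excess of overlapping fragments (10.9% against 6.51%), and without the latter cells the *Epor* ratio was -0.27. Of 10 B cell and 9 T cell genes tested, 1 each was called lower (*Igll1*, -0.78, and *Cd3e*, -0.66). Of 11 late erythroid genes, *Trim10* was called higher (0.90), as was *Olfr66* (0.63) of 10 globin neighbors. The part of tags, overlaps and these genes in the member values was not tested. Of 8 members, 0 were called higher and 1 lower, beside 1.15% and 1.72% of all genes. The called gene was *Hba-a1*, with 5 and 15 fragments (-1.35, -3.26 to 0.09), an interval that includes 0. The *Hba-a1* promoter alone gave 2 and 11 fragments (-2.06, -5.53 to -0.12), an interval that leaves out 0. Its copy *Hba-a2* had 9 and 8 fragments over the gene window and 6 and 8 over the promoter.

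For CD357, the members had 126 CPM in 1365 high and 119 in 2264 low cells (0.09, 0.00081 to 0.17). Without *Tfrc* and *Klf1*, a setting chosen after seeing the data, the summed ratio was slightly negative, as given at the end. *Klf1* was higher in CD357-high cells, with 49.6 against 43.2 CPM (0.20, 0.06 to 0.34). CD357-high cells carried more tags (median 35 against 26) and more often had an excess of overlapping fragments (11.4% against 6.80%), and without the latter cells the *Klf1* ratio was 0.21. Of 11 myeloid and 10 B cell genes tested, 1 each was called higher (*Camp*, 0.99, and *Ms4a1*, 0.60). Along the CD357 count its level was 42.0 CPM (38.5 to 45.8) at 0 to 1 tags, 44.6 (40.8 to 48.7) at 2 to 3, 50.1 (45.1 to 55.5) at 4 to 5 and 49.1 (44.3 to 54.4) at 6 to 24. The intervals of neighboring steps overlapped. The *Klf1* promoter alone had 124 and 185 fragments (0.10, -0.25 to 0.43), and its intragenic site 703 and 982 (0.19, 0.05 to 0.33). *Epor* stood at 16.4 CPM (13.6 to 19.5) at 6 to 24 CD357 tags and between 20.4 and 22.2 below. Of 8 members, 0 were called higher and 1 lower, beside 1.54% and 1.51% of all genes. The lower one was *Hbb-bs*, with 10 and 25 fragments (-0.61, -1.87 to 0.46), and in cells with at least 50 tags its direction turned, to 0.17.

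For CD27, a marker of multilineage cells in the study's gate, the members had 122 CPM in both 825 high and 2804 low cells (0.00, -0.10 to 0.10). Of 8 members, 1 was called higher and 0 lower, beside 1.76% and 1.99% of all genes. This was *Hbb-bs*, with 13 and 22 fragments (0.94, -0.19 to 1.97), whose direction under CD357 was the opposite. CD27-high cells carried more tags (median 33 against 28) and more often had an excess of overlapping fragments (12.6% against 7.35%), and without the latter cells *Hbb-bs* was again higher in CD27-high cells. Among genes of other cell types, *Gp6* of 11 megakaryocyte genes (-0.75) and *C1qa* of 10 macrophage genes (-0.70) were called lower, and *Rag1* of 10 B cell genes (0.66) higher. Of 11 myeloid genes, *Ms4a3* was called higher (0.50) and *S100a8* lower (-0.77), and of 10 globin neighbors *Il9r* was called higher (0.50). Over the 4 antibodies and the gates, each call in a member rested on a globin gene with at most 35 fragments. Of 176 olfactory receptor genes tested, 25 were called higher and 27 lower for CD61, and 11 and 32 for CD274. The counts were 26 and 28 for CD357 and 35 and 35 for CD27. Calls were thus more frequent among these mostly closed genes than among all genes.

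**Figure D4:**
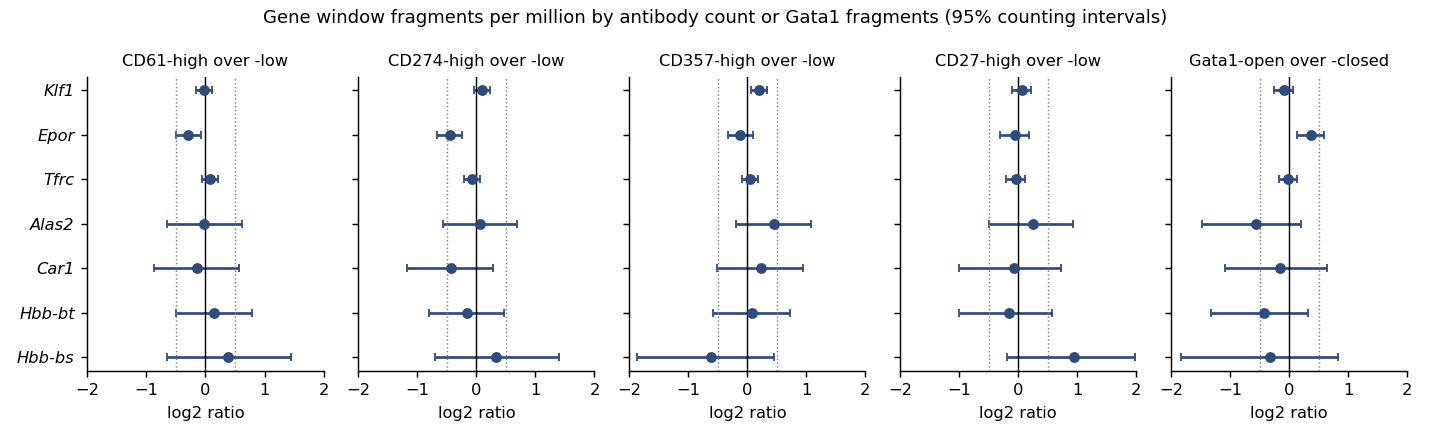
Log2 ratio of gene window fragments in CPM (horizontal axes) for 7 members with at least 35 fragments, by antibody count and by *Gata1* fragments; bars are 95% counting intervals and dotted lines mark 0.5 in either direction. *Epor* lies left of 0 for CD274 and CD61 and right of 0 for Gata1-open cells, and the interval of *Tfrc* includes 0 in all 5 panels.

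**Figure D5:**
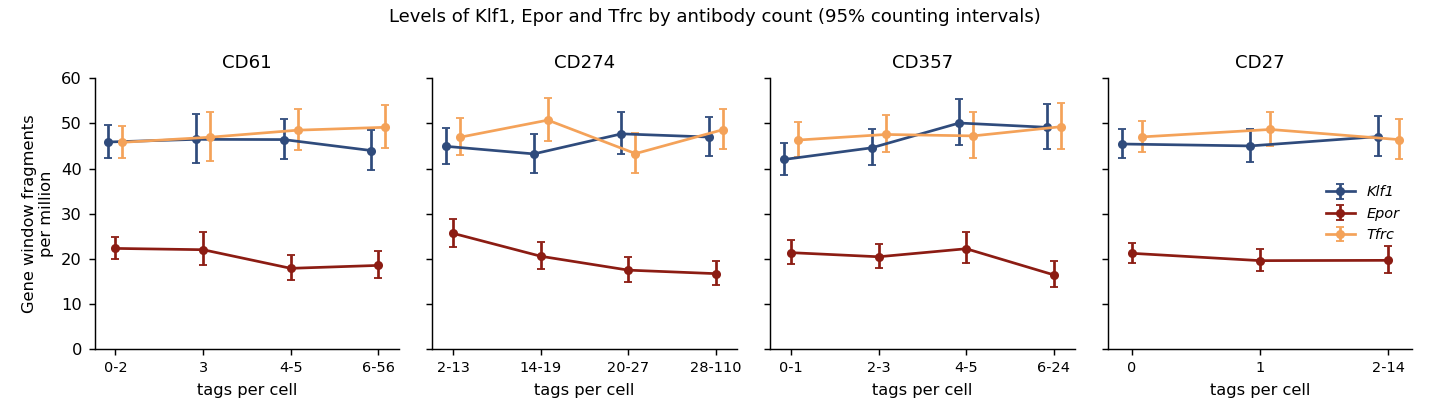
Gene window fragments in CPM (vertical axis) of *Klf1*, *Epor* and *Tfrc* against tags per cell in steps of the antibody count (horizontal axes), with 95% counting intervals. *Epor* goes from 25.6 to 16.7 CPM along CD274, while *Tfrc* shows no step in any panel whose intervals do not overlap.

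The large alpha site and the beta site at 7.93 kb had overlapping counting intervals over all steps of each antibody. From the lowest to the highest CD274 step, the alpha site stood between 46.6 and 49.2 CPM and the beta site between 7.76 and 8.83. Of the 55 sites of all loci, 55 had enough fragments in each single antibody split, and the count called higher and lower was 3 and 3 for CD61 (4.96% and 4.3% of all open sites), 1 and 2 for CD274 (6.74% and 4.33%), 1 and 4 for CD357 (4.4% and 5.22%) and 4 and 3 for CD27 (6.22% and 6.29%). No antibody had more than 4 of the 55 sites called in 1 direction. The site at -14.8 kb from the *Tfrc* start was lower in CD274-high cells (49 and 90 fragments, log2 ratio -0.78, -1.31 to -0.26). A site 29.05 kb upstream of *Hba-x* was higher in CD27-high cells (62 and 133 fragments, 0.58, 0.12 to 1.02). Between the PLT and MUL gates, 3 of 34 sites were called higher and 10 lower, beside 19.7% and 18.1% of all sites, each on at most 93 fragments. The intervals of 4 called sites left out 0. Of these, 3 were lower, at -45.0 kb (-1.38, -2.23 to -0.41) and 11.3 kb (-1.06, -1.73 to -0.30) from the *Klf1* start and 24.9 kb from that of *Hba-a2* (-2.09, -3.35 to -0.74), and 1 was higher, 42.2 kb from the *Tfrc* start (1.19, 0.12 to 2.78). The site at -45.0 kb covers the promoter of *Farsa*, and that at 11.3 kb lies within *Dnase2a* and *Mast1*. The site 42.2 kb from the *Tfrc* start lies in an intron of *Tnk2*. The beta site at 7.93 kb was called lower with an interval that includes 0, with 24 and 9 fragments (-1.19, -2.30 to 0.14).

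*Gata1* drives commitment toward red cells and megakaryocytes, and cells were also divided by whether a fragment lay over it. The 780 Gata1-open and 2849 Gata1-closed cells had the same summed level of the members, 122 CPM (log2 ratio 0.00, -0.10 to 0.10). *Epor*, a target of Gata1 in red cell precursors, was higher in Gata1-open cells, with 232 and 548 fragments or 24.3 and 18.9 CPM (0.36, 0.13 to 0.59). Its promoter alone gave 171 and 356 fragments (0.55, 0.27 to 0.81). *Klf1* had 43.6 and 46.4 CPM (-0.09, -0.25 to 0.07) and *Tfrc* 47.0 and 47.6 (-0.02, -0.18 to 0.14). Of 8 members, 1 was called higher, *Hba-a1* (7 and 13 fragments, 0.75, -0.86 to 2.14), and 1 lower, *Alas2* (16 and 73 fragments, -0.55, -1.47 to 0.21), beside 2.91% and 1.19% of all genes. In cells with at least 50 tags the *Alas2* ratio turned to 0.76. The *Alas2* promoter alone, in all cells, gave 2 and 29 fragments (-1.96, -5.37 to -0.27), an interval that leaves out 0. Gata1-open cells were deeper (median 11378.5 against 10045 nuclear fragments), and 17.7% of them against 6.04% had an excess of overlapping fragments. Of the megakaryocyte genes, 1 of 11 tested was called higher in Gata1-open cells (*Ppbp*, 0.73), and of the myeloid genes 2 of 11 were called lower. Of 10 B cell genes 1 was called higher (*Rag1*, 0.59), of 10 macrophage genes 1 (*C1qb*, 0.62) and of 10 globin neighbors 2, while 0 of 12 HSC and 0 of 9 T cell genes were called. Without the cells with excess overlaps the *Epor* ratio was 0.43, and with all cells thinned to 6000 fragments it was 0.34.

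Among the sites, 1 of 55 was called higher in Gata1-open cells and 4 lower, beside 5.98% and 7.31% of all open sites. The site at -10.8 kb from the *Tfrc* start had the interval farthest from 0, with 34 and 205 fragments or 3.56 and 7.08 CPM (-0.97, -1.56 to -0.46). No site in either globin control region was among the called ones. Outside these regions, a site far downstream of the alpha genes, 46.6 kb from *Hba-a2*, was called lower (-0.72, -1.44 to -0.10). So was a small site 1.65 kb from the *Hbb-bt* start (-0.58, -1.96 to 0.48).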

How the data were processed

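DOGMA-seq libraries were made from 1 preparation of sorted LT-HSCs, with 1 library each for ATAC, RNA and antibody tags. Per the file headers and the submitters' processing notes, the authors aligned the ATAC reads to mm10 with Cell Ranger ARC 2.0.2 and deposited fragments with their read pair counts. The deposited antibody table holds counts of unique tags per cell. For the tag counter, CITE-seq-Count, no version is given in these sources. The RNA matrix was not analysed here.

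Of 4369 called cells, 3724 had antibody counts, all 3724 barcodes being shared, and 3629 with at least 10 summed tags were kept. Each fragment overlapping a region was counted once, so a cell could add several. Counts were scaled to CPM by nuclear fragments (38498362 in all), with genes from GENCODE M21. Open sites were found in windows of 500 bp at steps of 100 bp and merged within 200 bp. Log2 ratios had 0.5 added to each count. Poisson, Clopper-Pearson and conditional binomial intervals (95%) cover counting error only, since barcoded fragments of 1 library are not replicates. A floor of 3 counts was used where a count was 0. Promoter sequences came from the RefSeq table (GRCm38.p6) and site sequences from mm10. Uniqueness was the share of words of 50 bases that occur once in the genome. List genes lying in stretches of at least 20 kb without fragments were left out (1 gene). Doublets were not called, and 1 alternative dropped 310 cells in which too many fragments overlapped.

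The members, their windows and all gene lists were chosen with earlier results of these data known. The named genes were the 9 members, the lowest and highest gene of each list by promoter level, and the gene of the erythroid lists nearest to a member in level. *Car2*, *Alas1*, *Gata1*, *Slc4a1*, *Hbb-bh1*, *Hbq1a*, *Ppbp*, *Rag1*, *C1qb*, *Pklr*, *Tspo2*, *Cdkn1b*, *Olfr66*, *Igll1*, *Cd3e*, *Gfi1b*, *C1qa*, *Ms4a3*, *S100a8*, *Il9r* and *Camp* were named after their values were seen. *Farsa*, *Dnase2a*, *Mast1* and *Tnk2* were named as the genes at called sites. Calculations used Python 3.11.15, numpy 2.4.6, scipy 1.17.1, pandas 2.3.3 and statsmodels 0.14.6, and the counting of log2 ratios was tested on simulated data.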

Additional observations from a re-analysis of the deposited data

Results flagged for a closer look

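The 645 called cells without antibody counts, which entered no comparison, carried 108 promoter fragments of the 9 erythroid genes. This was 84.2 CPM (scaled by nuclear fragments, 69.1 to 102), against 65.6 CPM in the 3629 cells with at least 10 tags. *Tfrc* had 49.9 CPM against 40.7, *Epor* 21.1 against 13.7 and *Klf1* 10.1 against 8.03. The 4 globin promoters together showed 0, 0, 1 and 3 fragments for *Hba-a1*, *Hba-a2*, *Hbb-bs* and *Hbb-bt*. These cells were shallow, with a median of 1805 nuclear fragments, and the part of their depth or quality in the values was not tested.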

How the results depend on the processing

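The promoter level of the 9 genes was 65.6 CPM, and moved to 59.9 with insertions in place of fragments, 85.6 with fragments under 120 bp and 38.2 with promoters of 250 bp on each side. Their gene level was 122 and moved to 142 with fragments under 120 bp and 101 without the 2 kb upstream. The alpha control windows (46.1) gave 39.5 with insertions, 48.5 with at least 2 read pairs per fragment, 67.0 with fragments under 120 bp and 8.55 with windows of 500 bp on each side. The beta control region (14.7) gave 11.7 in cells with at least 50 tags and 12.02 with fragments under 120 bp. The summed log2 ratio for CD274 was -0.16 over promoters, and that for CD27 was 0.20 at 50 or more tags. Without *Tfrc* and *Klf1*, a setting chosen after seeing the data, CD61 gave -0.21, CD274 gave -0.35, CD357 gave -0.024 and the Gata1 split gave 0.17. At 50 or more tags, *Hbb-bs* under CD357 turned to 0.17 and *Alas2* under Gata1 to 0.76, and the cause was not tested. Open sites numbered between 47 and 65 over the settings tried. The *Epor* ratio for CD274 lay between -0.23 and -0.59 in all settings but that of 50 or more tags (0.25). Depth limits the closed members, whose gates held 0 to 7 fragments each. No paired analysis was possible because each assay has 1 library.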
